A study of Homo sapiens with 12 samples.

Results

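The 36 genes described here encode the human aminoacyl-tRNA synthetases, 20 for the cytosolic enzymes and 16 for the mitochondrial ones, out of 57500 genes counted in each library. They were chosen by name: each Ensembl identifier was matched to its GENCODE 29 symbol, and the newer names add a 1, as in AARS1 for AARS. The data are RNA sequencing of the hepatocellular carcinoma line HepG2 in 3 groups of 4 independent replicates. WT cells were unmodified HepG2, and shTST cells carried a lentiviral shRNA against TST (thiosulfate sulfurtransferase, a mitochondrial enzyme that converts cyanide to thiocyanate). The overTST cells carried a lentiviral, codon-optimized TST driven by the CMV promoter. The methods describe selection of transduced cells with blasticidin and name no other selection for the shRNA line. By the methods, all 3 groups were kept in standard medium with 400 µM glycine for 24 h, and no empty-vector line is described for these libraries, so construct and change in TST cannot be told apart. Whether each line is 1 clone is not given in the sources used here.

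An aminoacyl-tRNA synthetase joins an amino acid to its matching tRNA, which then delivers it to the ribosome. Cytosolic and mitochondrial translation use mostly separate enzymes from separate nuclear genes, but KARS and GARS each encode both forms, and mitochondria make glutaminyl-tRNA by an indirect route that starts with EARS2. When a tRNA stays uncharged, the kinase GCN2 (EIF2AK4) acts with GCN1 on the translation factor eIF2, which favours translation of the transcription factor ATF4. ATF4 in turn is known to act on many cytosolic synthetase genes and on genes of amino acid synthesis, through a promoter sequence called the C/EBP-ATF response element.

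The core of that element, TTGCATCA, was looked for on both strands in the RefSeq promoter table (GRCh38.p14), which holds 250 bases before and 50 after each start site. Of the 20 cytosolic genes 16 matched (not DARS, LARS, VARS and YARS), and of the 16 mitochondrial genes 14 (not AARS2 and VARS2). The letters were in 6 of the 16 matched cytosolic genes (37.5%), in 0 of the 14 mitochondrial genes and in 1.08% of the 27305 genes of the whole table. They are given here in capitals within their surroundings, because these 6 promoters are referred to again beside the RNA changes. Each run is on the strand of the gene, with the element on the opposite strand in NARS.

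AARS, chr16:70289660-70289733, minus strand: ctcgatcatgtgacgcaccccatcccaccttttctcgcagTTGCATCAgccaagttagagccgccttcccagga
CARS, chr11:3057394-3057465, minus strand: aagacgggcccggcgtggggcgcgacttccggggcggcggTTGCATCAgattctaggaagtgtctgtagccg
IARS, chr9:92293677-92293750, minus strand: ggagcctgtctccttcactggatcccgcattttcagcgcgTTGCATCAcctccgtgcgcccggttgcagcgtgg
MARS, chr12:57488024-57488097, plus strand: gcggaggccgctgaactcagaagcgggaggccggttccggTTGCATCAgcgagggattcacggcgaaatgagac
NARS, chr18:57621807-57621862, minus strand: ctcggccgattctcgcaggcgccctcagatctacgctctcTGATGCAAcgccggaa
TARS, chr5:33440927-33440994, plus strand: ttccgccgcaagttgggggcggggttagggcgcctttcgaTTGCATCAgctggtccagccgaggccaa

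In 5 of these promoters the element lies next to the start site. Its first base is 13 bases before the start in IARS, 4 before in MARS and 2 before in CARS, and it lies 2 bases past the start in TARS and 14 past it in NARS. In AARS it lies 187 bases before the start. With any base at the third position, TTNCATCA (which contains the exact form), GARS was added by its second promoter and 7 cytosolic genes (43.8%) and 1 mitochondrial gene, YARS2 (7.14%), held a match, against 4.46% of all genes. These matches describe letters in the reference sequence and say nothing of binding.

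Levels are given as RPKM (counts scaled to exonic length and to library size, after TMM scaling), the scale on which genes can be compared with each other. Over all 12 libraries AARS, the alanyl enzyme, was the highest cytosolic gene at 83.4 RPKM, followed by FARSA at 74.8 and KARS at 69.8, and CARS, the cysteinyl enzyme, was the lowest at 4.07 RPKM. IARS2, the mitochondrial isoleucyl enzyme, led the mitochondrial genes at 37.4 RPKM, and PARS2, the prolyl enzyme, was lowest at 3.45 RPKM. In WT the median gene had 30.7 RPKM among the cytosolic enzymes and 10.1 among the mitochondrial ones. CARS has the longest exonic model of the cytosolic genes (10037 bases), and its level per length depends on that model. HARS, which charges histidine in the cytosol, had 14.0 ± 0.386 RPKM in WT (SD, n = 4), and its mitochondrial relative HARS2 had 5.03 ± 0.225 (SD, n = 4).

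**Figure D1:**
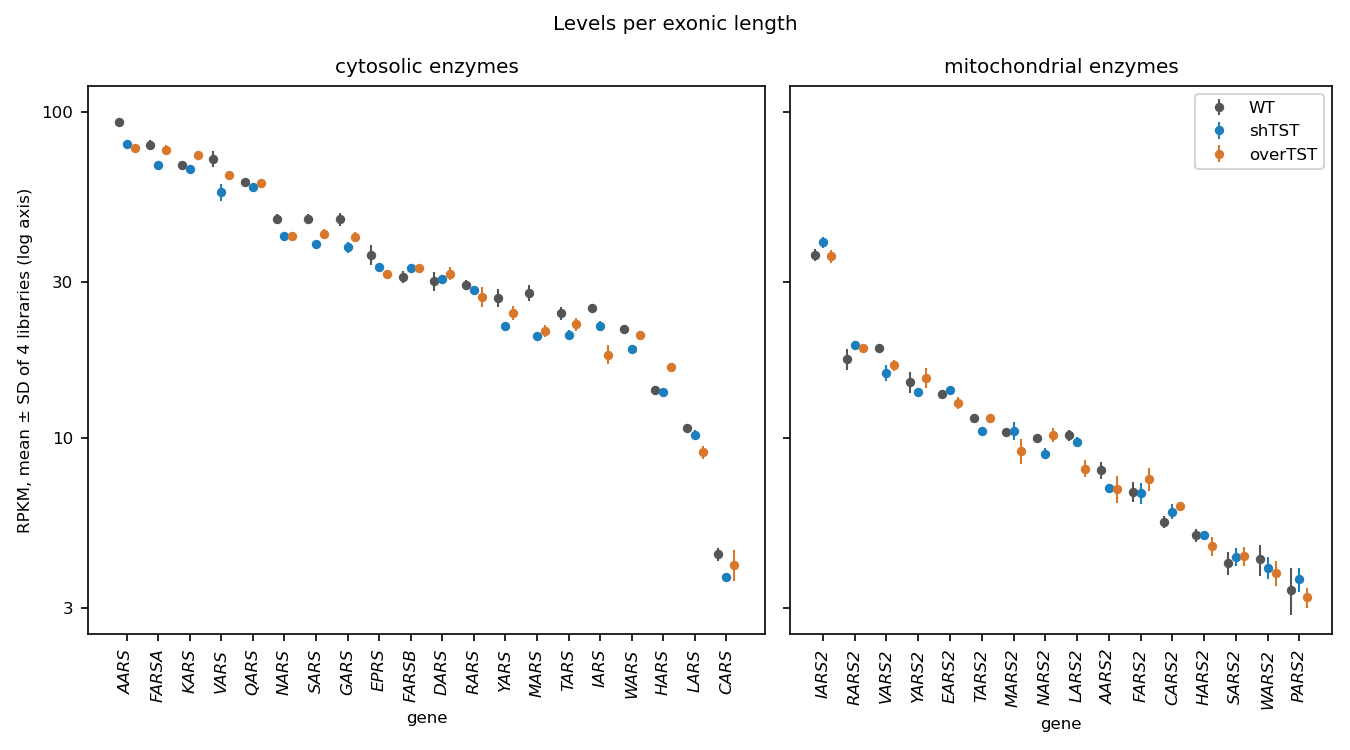
RPKM (log axis) of each cytosolic (left) and mitochondrial (right) synthetase gene in WT, shTST and overTST, as points with bars for the mean ± SD of 4 libraries. The cytosolic genes run from AARS to CARS and the mitochondrial genes from IARS2 to PARS2, and within most genes the 3 groups lie close together compared with the distance between genes.

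Total counts were 28866175 to 45120508 per WT library, 27527854 to 33865386 in shTST and 22911380 to 27414142 in overTST, and all 36 genes passed edgeR's filter on low counts in every comparison. The 8 hepatocyte markers summed to 19800 to 26100 CPM (counts scaled to library size) in a library, and those of fibroblasts, endothelium and blood to 3.91 CPM or less. Mitochondrially encoded genes held 6.91 to 12% of the counts in WT, 6.84 to 8.65% in shTST and 10.8 to 11.7% in overTST, and their part in the results was not tested. TST, the targeted gene, had 47.2, 47.5, 52.8 and 48.5 CPM in the WT libraries, 33.0, 33.6, 36.6 and 33.5 in shTST, all lower, and 51.8, 56.0, 61.6 and 62.1 in overTST, where the lowest fell below the highest of WT. The log2 fold change was −0.52 with shTST (SE 0.055, adjusted p = 3.2e-06, by the quasi-likelihood test of edgeR, as are all later adjusted p unless DESeq2 is named) and 0.24 with overTST (SE 0.062, adjusted p = 0.00384). The overTST call was lost with a correction for gene length (log2 fold change 0.097, adjusted p = 0.201), and reads of a codon-optimized transgene need not be counted for the native gene. The paper checked both changes in TST by western blot. It also reports that added cyanide was broken down more in overexpressing cells and more slowly in silenced cells. Both comparisons use the same 4 WT libraries.

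The cytosolic synthetases were lower as a group in shTST. Of the 20 genes 12 fell, 0 rose and 8 did not pass, and the median log2 fold change was −0.19 (from −0.44 to 0.087). Over all 14584 genes tested, 9.4% fell, 6.69% rose and the median was 0.0040. The same 12 genes had every shTST library below every WT library, which held for 10.8% of all genes, and 0 had every shTST library above WT (8.37% of all genes). The largest decreases were in MARS, VARS, YARS, GARS and SARS.

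MARS, the methionyl enzyme, had 186, 206, 187 and 205 CPM in WT and 142, 140, 144 and 150 in shTST. The highest shTST library stood well below the lowest WT library, and the change was 1.36-fold down (log2 fold change −0.44, SE 0.045, adjusted p = 1.9e-06). MARS shares 5.05% of its exonic bases with DDIT3 and 7.38% with ARHGAP9, both on the opposite strand, and the use of strand in counting is not given in the sources used here. DDIT3 itself was at 2.5 to 7.86 CPM in these libraries.

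VARS, the valyl enzyme, had 404, 466, 433 and 444 CPM in WT against 318, 365, 343 and 352 in shTST (log2 fold change −0.34, SE 0.050, adjusted p = 0.000107). YARS, the tyrosyl enzyme, went from 217, 222, 205 and 239 CPM to 178, 185, 174 and 183 (−0.29, SE 0.046, adjusted p = 0.000227). GARS, whose gene serves both compartments with glycyl-tRNA, went from 203, 191, 184 and 201 CPM to 160, 166, 161 and 151 (−0.29, SE 0.045, adjusted p = 0.000189). In all of these the groups stood apart.

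SARS, the seryl enzyme, had 176, 178, 176 and 190 CPM in WT and 152, 148, 151 and 154 in shTST (−0.25, SE 0.042, adjusted p = 0.000319). The other genes that fell were CARS (log2 fold change −0.24), AARS (−0.22), TARS (−0.22), WARS (−0.21), FARSA (−0.21), IARS (−0.18) and NARS (−0.18). All 12 calls held with each library left out and in each other fit tried.

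Grouped by role, the cytosolic enzymes differed in their counts. Over all genes 9.4% fell and 6.69% rose with shTST. Of the 8 enzymes held in the multisynthetase complex, a stable assembly of synthetases in the cytosol, 2 fell with shTST (MARS and IARS), and the median was −0.064. The other 6, DARS, EPRS, KARS, LARS, QARS and RARS, did not pass, with log2 fold changes from −0.12 (EPRS, adjusted p = 0.0912) to 0.014 (DARS, adjusted p = 0.883). Outside the complex, all 4 enzymes of class I fell (CARS, VARS, WARS and YARS, median −0.26), as did 6 of the 8 genes of class II (median −0.21). Among these 8 genes FARSA and FARSB encode the same enzyme. The difference between these groups of genes was not tested.

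The phenylalanyl enzyme is built from an alpha and a beta subunit, encoded by FARSA and FARSB. FARSA fell, from 184, 195, 193 and 200 CPM in WT to 160, 167, 169 and 172 in shTST (−0.21, SE 0.042, adjusted p = 0.00219). FARSB had 110, 99.1, 105 and 106 CPM in WT and 111, 111, 114 and 109 in shTST, overlapping groups with a log2 fold change of 0.087 (SE 0.044, adjusted p = 0.185). HARS likewise did not pass, with 118, 118, 114 and 122 CPM in WT and 114, 120, 117 and 116 in shTST (−0.013, adjusted p = 0.865), nor did KARS (−0.035, adjusted p = 0.6).

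Of the 12 cytosolic genes commonly listed as ATF4 targets, 10 fell with shTST (all but EPRS and LARS), against 9.4% of all genes. Their median was −0.22. Of the 8 cytosolic genes outside that list 2 fell, VARS and FARSA. The list was made from general knowledge with earlier results of these libraries known, so its counts are a description. All 6 genes with TTGCATCA in the promoter fell (median −0.22, from −0.44 to −0.18). Of the 10 matched genes without it 4 fell (median −0.089, from −0.29 to 0.087). DARS, LARS, VARS and YARS had no promoter to search and are in neither count. Of these, VARS (−0.34) and YARS (−0.29) fell, and DARS and LARS did not pass. The difference between genes with and without the element was not tested.

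**Figure D2:**
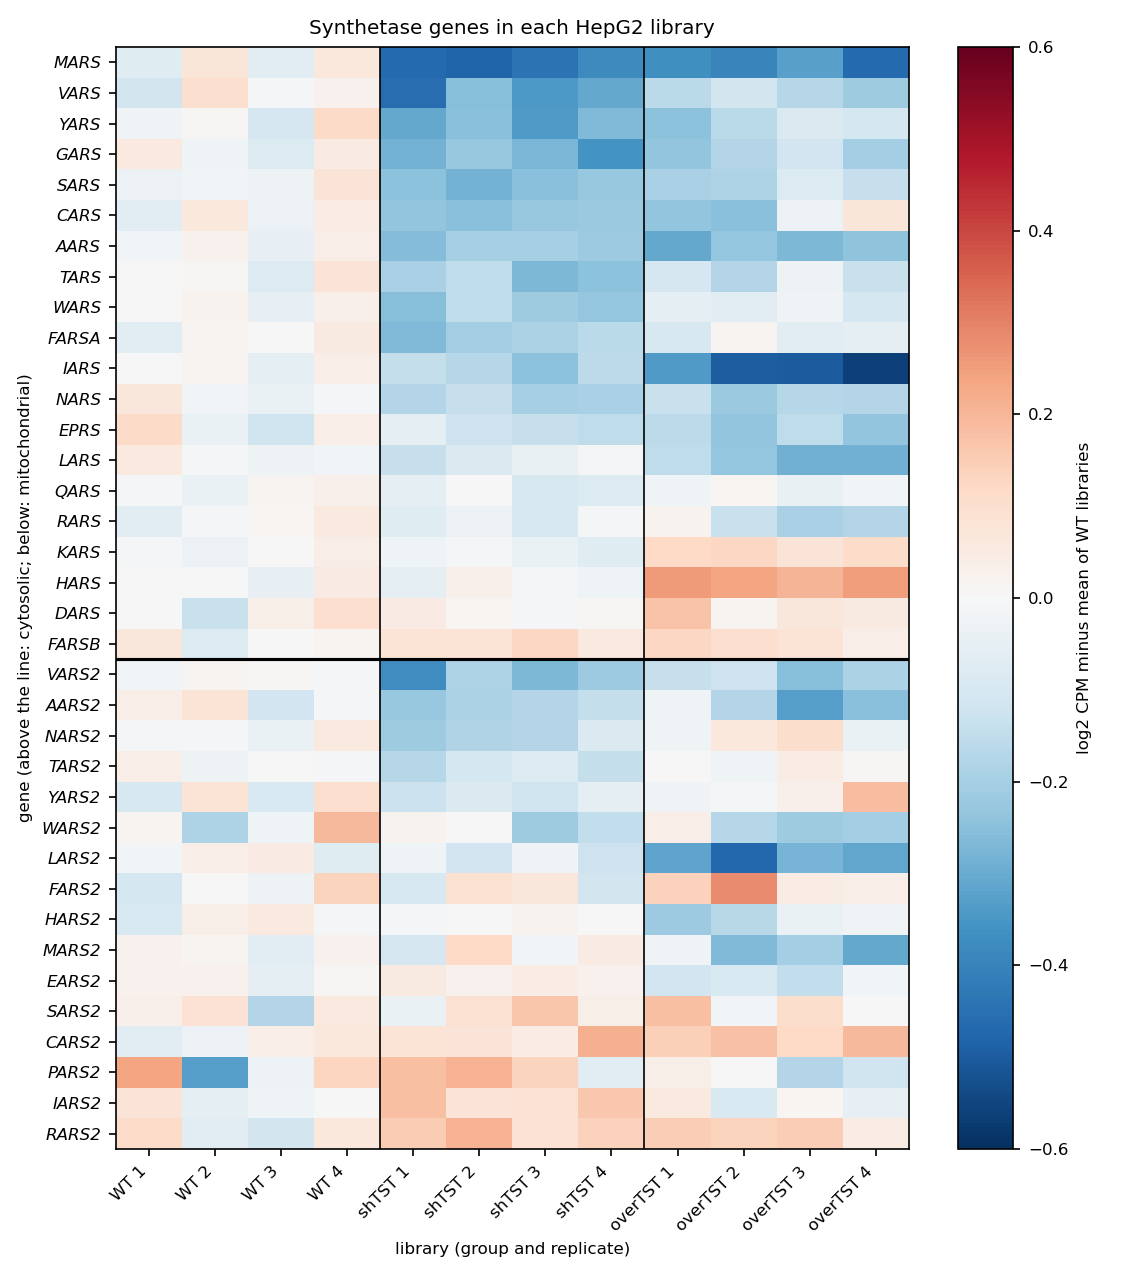
Each row is a synthetase gene and each column a library, coloured by log2 CPM minus the mean of the WT libraries, with cytosolic genes above the horizontal line and genes ordered by the shTST change. The upper rows are blue in every shTST library from MARS to NARS, HARS turns red in the 4 overTST libraries, and most mitochondrial rows change little.

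The mitochondrial synthetases showed no common direction with shTST. Of the 16 genes 3 fell and 0 rose, against 9.4% and 6.69% of all genes, and the median log2 fold change was −0.0043, with 8 genes above 0 and 8 below. VARS2, AARS2 and NARS2 were the 3 that fell.

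VARS2, the mitochondrial valyl enzyme, had 158, 162, 160 and 159 CPM in WT and 123, 141, 132 and 137 in shTST, with no overlap (−0.26, SE 0.045, adjusted p = 0.000465). It shares 22.0% of its exonic bases with GTF2H4 on the same strand, so part of its counts is uncertain. AARS2, the alanyl enzyme, went from 35.2, 36.2, 31.6 and 34.0 CPM to 29.2, 30, 30.3 and 31 (−0.19, SE 0.056, adjusted p = 0.0268).

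NARS2, the asparaginyl enzyme, went from 31.4, 31.3, 30.7 and 32.9 CPM to 27.2, 27.8, 28 and 29.7 (−0.16, SE 0.055, adjusted p = 0.0471). Although neither of these groups overlapped, the calls were weak: that of NARS2 was lost without any one of the 8 libraries (adjusted p from 0.0514 to 0.159), and that of AARS2 without any but WT replicate 3 (0.0519 to 0.0931). Of the 3 calls, 1 (VARS2) was left without any one of the other 7 libraries, and 2 without WT replicate 3.

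IARS2 lay just outside the threshold in the other direction, with 160, 146, 149 and 152 CPM in WT and 172, 160, 161 and 170 in shTST (0.13, SE 0.044, adjusted p = 0.0522). IARS2 passed with DESeq2 (adjusted p = 0.0293), RLE factors (0.0487), upper-quartile factors (0.0295), the replicate block (0.0146), the length correction alone (0.0377) or with the block (0.0107), without WT replicate 1 (0.0283) and without shTST replicate 2 (0.0454). HARS2 had 16.1, 17.5, 17.8 and 17.1 CPM in WT and 17.0, 17.2, 17.4 and 17.1 in shTST (0.0023, adjusted p = 0.988), and PARS2 had a log2 fold change of 0.11 with wide scatter in WT, from 6.30 to 9.38 CPM (SE 0.11, adjusted p = 0.529).

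**Figure D3:**
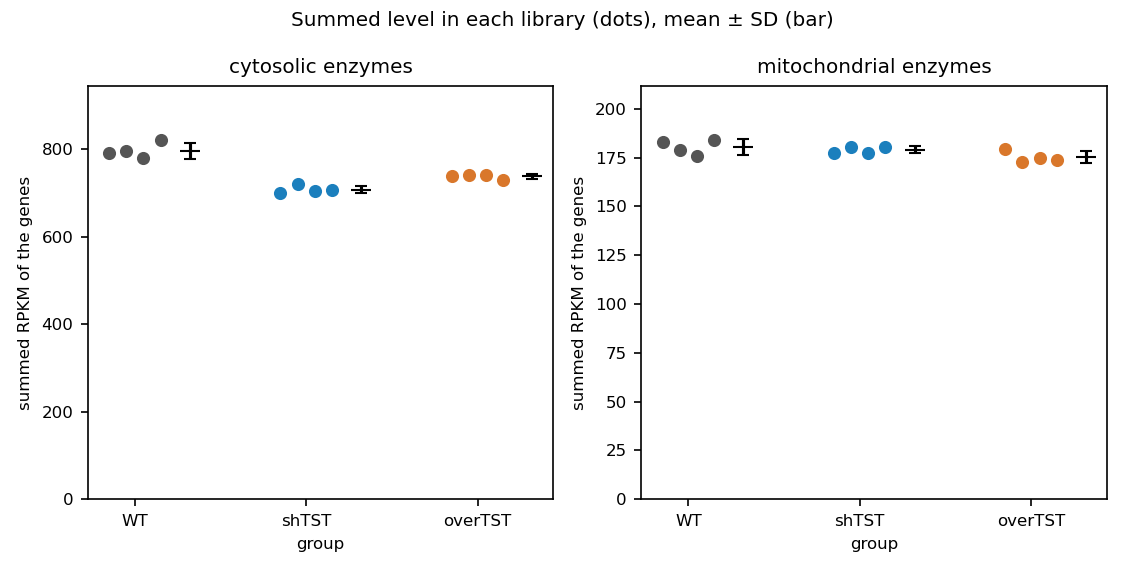
Summed RPKM of the cytosolic (left) and mitochondrial (right) genes in each library, as dots, with the mean ± SD of the 4 libraries beside them. The cytosolic sums of both lines lie below all WT libraries, and the mitochondrial sums of WT and shTST overlap.

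Summed over the 20 cytosolic genes, the level was 790, 795, 779 and 821 RPKM in the WT libraries, 699, 719, 704 and 707 in shTST and 739, 741, 740 and 730 in overTST. Both lines were below WT in every library, and shTST was below overTST. The 16 mitochondrial genes summed to 175.6 to 184.1 RPKM in WT, 177.4 to 180.7 in shTST and 173 to 179.5 in overTST, overlapping ranges. Abundant genes weigh most in these sums.

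In overTST the cytosolic enzymes again had more decreases than increases. Of the 20, 10 fell, 1 rose and 9 did not pass, with a median log2 fold change of −0.13. Among all 14421 genes tested 33.9% passed, 18.2% fell, 15.7% rose and the median was 0.0019. In 8 of the 20 every overTST library lay below every WT library (16.2% of all genes), and in 2, HARS and KARS, above (14.2%). The share of cytosolic genes that fell thus stood nearer to the background of this comparison than with shTST.

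IARS, the isoleucyl enzyme, showed the largest decrease, from 185, 187, 177 and 190 CPM in WT to 146, 131, 131 and 125 (1.39-fold down, log2 fold change −0.47, SE 0.052, adjusted p = 4.95e-07). MARS went from 186 to 206 CPM in WT to 152, 149, 156 and 142 in overTST (−0.39, SE 0.051, adjusted p = 3.34e-06). AARS had 413, 426, 403 and 430 CPM in WT and 338, 355, 347 and 353 in overTST (−0.26, SE 0.046, adjusted p = 0.000111). In these 3 genes the groups were separate.

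LARS, the leucyl enzyme, went from 90.3, 86.3, 84.8 and 85.7 CPM to 78.1, 73.8, 71.0 and 71.0 (−0.24, SE 0.051, adjusted p = 0.000838). The other decreases were EPRS, which charges glutamate and proline (−0.20), GARS (−0.18), NARS (−0.18), VARS (−0.17), SARS (−0.15) and YARS (−0.15). The last 3 were weak. The calls of VARS and YARS were lost with the length correction (adjusted p = 0.138 and 0.656), that of YARS also without WT replicate 4, overTST replicate 1 or overTST replicate 2, and that of SARS without WT replicate 4 or overTST replicate 2. Upper-quartile factors also removed the calls of SARS (adjusted p = 0.0566) and YARS (0.0789).

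HARS was the cytosolic gene that rose, from 118, 118, 114 and 122 CPM in WT to 141, 139, 136 and 140 in overTST (1.18-fold, log2 fold change 0.24, SE 0.047, adjusted p = 0.000408). HARS2 had 14.7, 15.2, 16.6 and 16.9 CPM in overTST and did not pass (−0.11, SE 0.075, adjusted p = 0.268). The start sites of both genes lie head to head, 85 bases apart. The stretch between them (capitals) is shown on the HARS strand because both genes begin from it.

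HARS and HARS2, chr5:140691344-140691481, minus strand: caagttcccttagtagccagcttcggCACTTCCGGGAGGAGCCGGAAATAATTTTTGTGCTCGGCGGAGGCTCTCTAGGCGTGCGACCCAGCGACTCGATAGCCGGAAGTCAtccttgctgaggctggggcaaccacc

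In the annotation the exons of HARS share 7.02% of their bases with HARS2 and 11.3% with WDR55, both on the opposite strand, and 17.4% of HARS2 lies over HARS, so the counts of both genes are uncertain to that extent. KARS, with 278, 272, 279 and 286 CPM in WT and 303, 304, 294 and 301 in overTST, was above WT in every library but did not pass (0.11, SE 0.045, adjusted p = 0.066). It passed with DESeq2 (adjusted p = 0.0265), with upper-quartile factors (0.0273) and in a fit of all 12 libraries (0.036). CARS was split among the overTST libraries, with 37.4, 37.1, 43.1 and 46.3 CPM against 42.1 to 46.0 in WT (−0.11, SE 0.068, adjusted p = 0.231).

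Over all genes 18.2% fell and 15.7% rose in overTST. By role, 4 of the 8 enzymes of the multisynthetase complex fell (EPRS, IARS, LARS and MARS, median −0.16). So did 2 of the other 4 class I enzymes (median −0.13), and of the other 8 class II genes 4 fell and 1 rose (median −0.13). With the length correction 0 of those 4 class I enzymes passed, and 4105 of all 14421 genes did. Of the 12 genes listed as ATF4 targets 9 fell and 0 rose (median −0.18), and of the 8 others 1 fell (VARS) and 1 rose (HARS). Of the 6 genes with TTGCATCA, 4 fell (AARS, IARS, MARS and NARS, median −0.22), and of the 10 matched genes without it 3 fell and 1 rose (median −0.056). Of the genes with no promoter to search, LARS, VARS and YARS fell and DARS did not pass. This difference was not tested either.

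**Figure D4:**
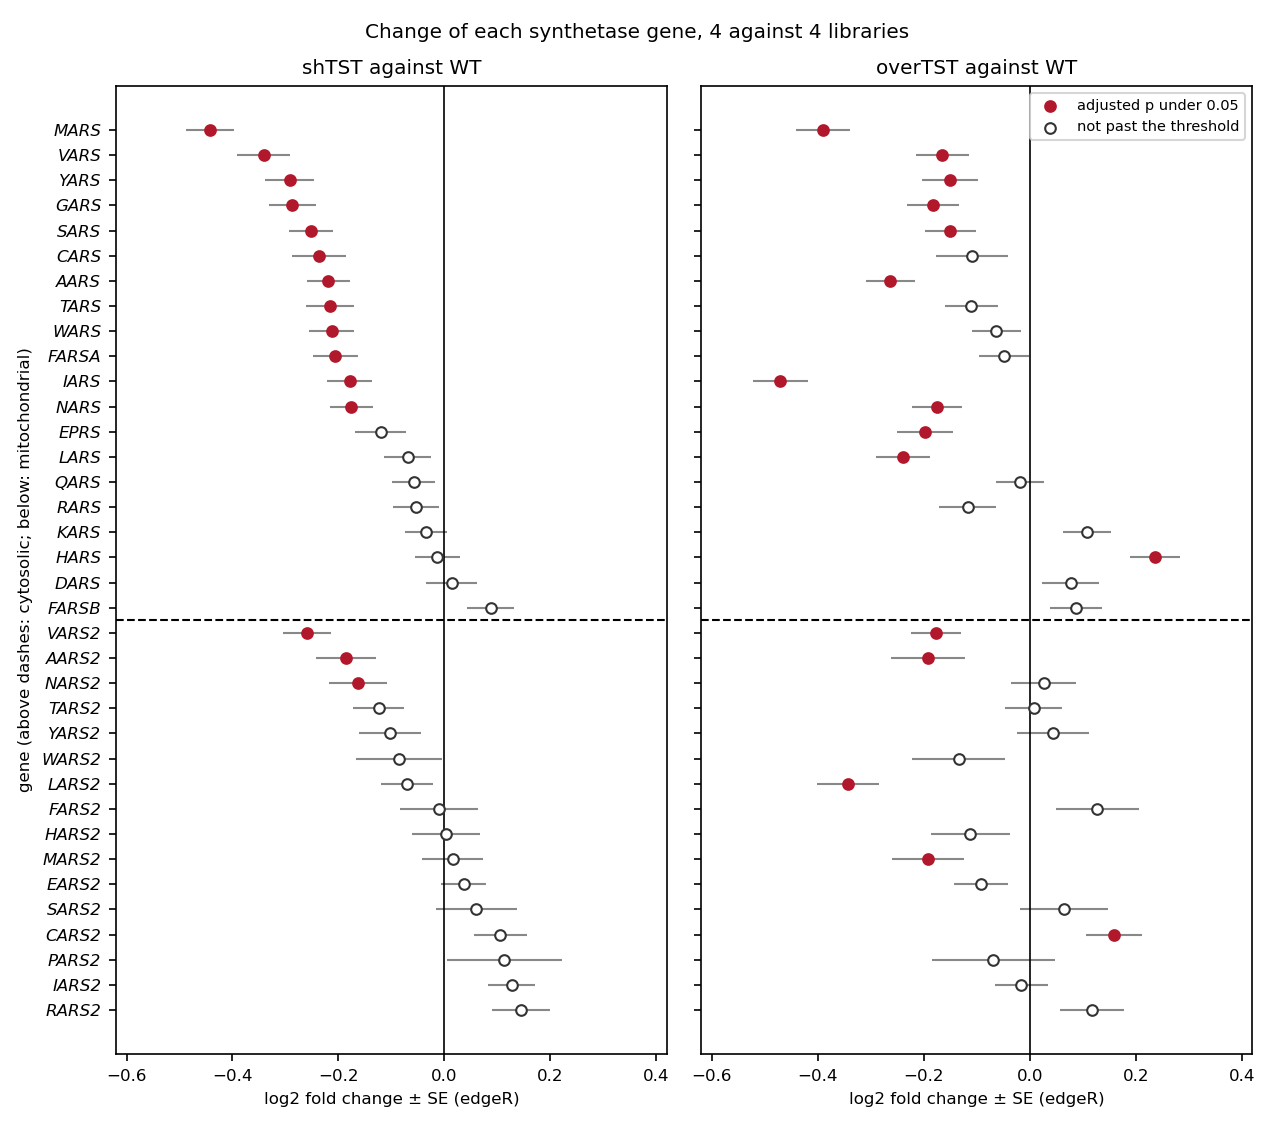
Log2 fold change ± SE of each synthetase gene against WT, with shTST on the left and overTST on the right, filled where the adjusted p passed the threshold, and with mitochondrial genes below the dashed line. On the left the 12 filled cytosolic points all lie left of 0 and reach −0.44 for MARS, and on the right IARS reaches −0.47 while HARS lies at 0.24.

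Among the mitochondrial enzymes 4 of 16 fell in overTST and 1 rose, against 18.2% and 15.7% of all genes, with a median of −0.042. LARS2, the leucyl enzyme, had the largest change, from 54.4, 56.5, 57.0 and 52.4 CPM in WT to 44.2, 39.6, 45.4 and 44.4 (1.27-fold down, −0.34, SE 0.058, adjusted p = 7.05e-05), with separate groups. VARS2 had 145, 146, 134 and 140 CPM, also below all WT libraries (−0.18, SE 0.047, adjusted p = 0.00515), and lost its call with the length correction (−0.059, adjusted p = 0.362).

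AARS2 had 33.6, 30.3, 27.2 and 28.7 CPM (−0.19, SE 0.070, adjusted p = 0.035). MARS2, the methionyl enzyme, had 31.1, 26.2, 27.4 and 25.5 CPM against 30.1 to 32 in WT (−0.19, SE 0.068, adjusted p = 0.0311). Both overlapped with WT in overTST replicate 1, and both calls were lost without any of 6 of the 8 libraries, all but WT replicate 3 and overTST replicate 1 (adjusted p from 0.0632 to 0.149 for AARS2 and from 0.052 to 0.11 for MARS2), which left 2 genes lower.

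CARS2, the cysteinyl enzyme, rose from 55.1, 56.3, 59.4 and 60.2 CPM to 63.8, 65.2, 62.8 and 66.1 (0.16, SE 0.052, adjusted p = 0.021). It was above WT in every library, and its call was lost without WT replicate 1 (adjusted p = 0.0748) or overTST replicate 4 (0.0627). IARS2 (−0.016, adjusted p = 0.838) and PARS2 (−0.069, adjusted p = 0.686) did not pass.

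Changes in overTST moved with gene length over all genes (Spearman's rho −0.40 across the 14421 genes, which are not independent replicates, and −0.09 with shTST). For overTST against shTST rho was −0.357. The synthetase genes span 2152 to 10460 exonic bases. After a correction for this trend 10 cytosolic genes were lower and 1 higher in overTST, with RARS (−0.16) and FARSA (−0.16) in place of VARS and YARS. Of the mitochondrial genes 3 were lower and 1 higher. Of all 14421 genes tested, 2058 were lower and 2047 higher in that fit. The value of HARS became 0.35, that of CARS2 0.31, that of IARS −0.38 and that of MARS −0.30. What set the length trend was not tested.

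**Figure D5:**
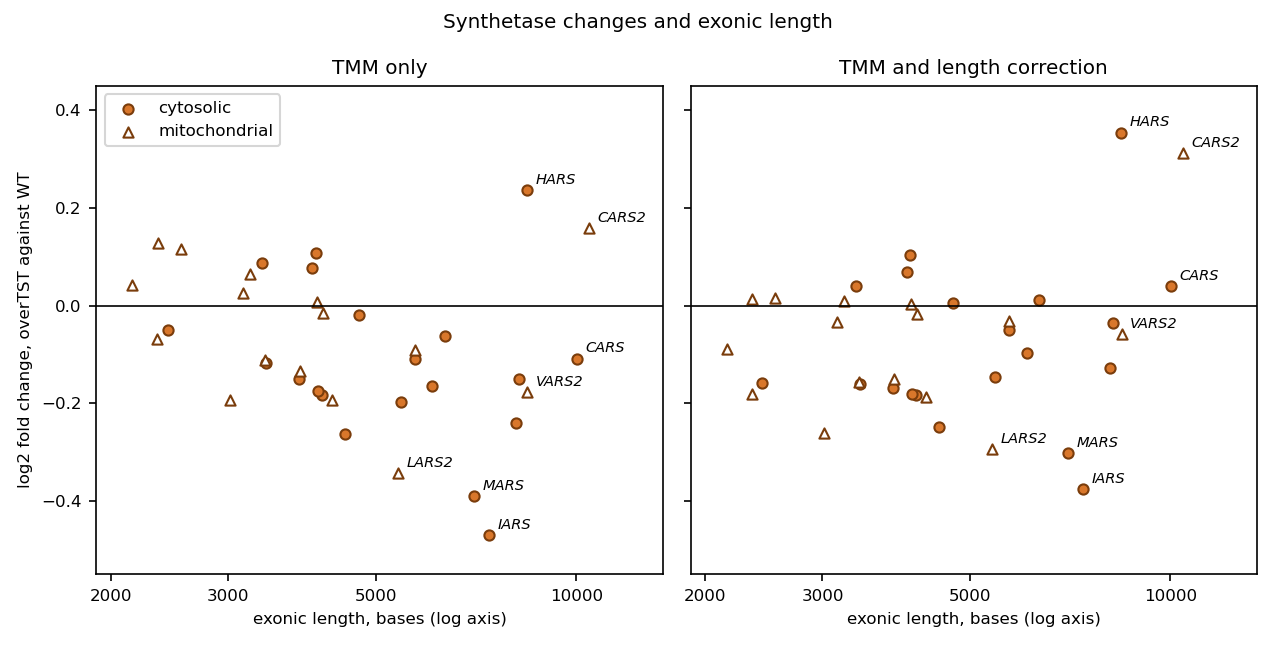
Log2 fold change of each synthetase gene in overTST against WT by exonic length (log axis), with TMM scaling alone (left) and with the length correction (right), filled circles for cytosolic and open triangles for mitochondrial genes. The correction raised the longest genes, with HARS at 0.35 and CARS2 at 0.31, and left IARS at −0.38 and MARS at −0.30.

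Comparing overTST with shTST directly gave the test of where the lines differed. Of the 20 cytosolic genes 6 were higher in overTST and 2 lower, against 16.1% and 16.9% of the 14883 genes tested, and the median was 0.083. HARS was higher by 0.25 (SE 0.042, adjusted p = 7.69e-05), followed by VARS (0.18), FARSA (0.16), WARS (0.15), KARS (0.14) and YARS (0.14). IARS was lower by a log2 fold change of −0.29 (SE 0.048, adjusted p = 5.94e-05), and LARS by −0.17 (SE 0.048, adjusted p = 0.0074).

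MARS, lower in both lines against WT, did not pass between them (0.053, SE 0.047, adjusted p = 0.419). With the length correction the calls of LARS (adjusted p = 0.225) and FARSA (0.308) were lost and CARS (0.25), TARS (0.16) and MARS (0.13, adjusted p = 0.0314) were higher in overTST, which made 8 higher and 1 lower. In that fit 2214 of all 14883 genes were higher and 1928 lower. YARS lost its call without shTST replicate 1 or 3 or overTST replicate 3 or 4.

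Among the mitochondrial genes, 2 were higher in overTST than in shTST and 4 lower, against 16.1% and 16.9% of all genes, with a median of −0.017. LARS2 was lower by −0.27 (SE 0.054, adjusted p = 0.000386), and this call held in each of the fits tried. MARS2 (−0.21), IARS2 (−0.14) and EARS2 (−0.13) were lower and NARS2 (0.19) and TARS2 (0.13) higher, and each of these 5 calls was lost without at least 1 library. With the length correction the 2 higher genes were CARS2 (0.19) and VARS2 (0.18) in place of NARS2 and TARS2. Without overTST replicate 2 the lower genes numbered 1, and without overTST replicate 3 the higher genes numbered 0.

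The partners of the synthetases were counted from short lists of related genes. Over all genes 9.4% fell and 6.69% rose with shTST, and 18.2% fell and 15.7% rose in overTST. Whether a list differed from these shares was not tested. Of the 3 scaffold proteins of the multisynthetase complex, 0 changed with shTST and 2 rose in overTST, AIMP1 (0.30, SE 0.058, adjusted p = 0.000339) and EEF1E1 (0.38, SE 0.071, adjusted p = 0.000229). The 3 scaffolds had a median of 0.30 in overTST and the 8 enzymes of the complex one of −0.16. Of the 4 genes for transamidation and formylation of mitochondrial tRNA, 0 changed with shTST and 1 rose in overTST, GATB (0.16, adjusted p = 0.0271), a call lost without any of 4 of the 8 libraries, WT replicates 1 and 2 and overTST replicates 2 and 4. Of 6 genes for proofreading and other charging steps, 0 changed with shTST and DTD1, which removes D-amino acids from tRNA, rose in overTST (0.28, SE 0.054, adjusted p = 0.0003).

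Of 5 cytosolic elongation factor genes 1 fell with shTST, against 9.4% of all genes, and 1 rose in overTST, against 15.7%. EEF2, the translocation factor, fell with shTST (−0.22, SE 0.054, adjusted p = 0.00891), a call lost without shTST replicate 1 (adjusted p = 0.0536). EEF1D rose in overTST (0.15, adjusted p = 0.0161), a call lost without WT replicate 2 or overTST replicate 3. Of 9 mitochondrial translation factor genes 0 changed with shTST, and in overTST 3 rose and 2 fell, against 15.7% and 18.2% of all genes. Among them were GFM2 (−0.39, SE 0.076), TSFM (0.26, SE 0.058) and MRRF (0.30, SE 0.076). With the length correction 2 rose and 1 fell, where 2047 of all 14421 genes rose and 2058 fell.

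In the pathway that senses uncharged tRNA, 1 of 6 genes fell with shTST (9.4% of all genes), GCN1 (−0.34, SE 0.049, adjusted p = 7.42e-05). In overTST 1 fell and 1 rose (18.2% and 15.7% of all genes). GCN1 fell again (−0.64, SE 0.062, adjusted p = 7.9e-08), and EIF2S2, a subunit of eIF2, rose (0.26, SE 0.054, adjusted p = 0.000502). The kinase gene EIF2AK4 did not pass in either (0.11 with shTST and −0.0061 with overTST). ATF4 itself had 337, 320, 358 and 347 CPM in WT, 329, 297, 363 and 303 in shTST and 323, 350, 404 and 428 in overTST, overlapping groups. Its log2 fold change was −0.076 (SE 0.055, adjusted p = 0.381) with shTST and 0.14 (SE 0.066, adjusted p = 0.0961) with overTST. The latter passed with upper-quartile factors (adjusted p = 0.0496), with the replicate block (0.0358) and without overTST replicate 1 (0.00639). Between the lines ATF4 was higher in overTST (0.22, SE 0.069, adjusted p = 0.0158), a call lost with the length correction (adjusted p = 0.128) and without shTST replicate 2 or 4 or overTST replicate 3 or 4 (0.0644 to 0.0988).

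Of ATF4 and 16 of its targets that are neither synthetases nor transporters, 16 genes passed the filter on low counts and CHAC1 did not. With shTST 8 fell and 1 rose, against 9.4% and 6.69% of all genes. The gene that rose was NUPR1 (0.305, SE 0.061, adjusted p = 0.00169). Those of smallest p were ASNS, asparagine synthetase (−0.71, SE 0.059, adjusted p = 2.55e-07), TRIB3 (−0.33) and MTHFD2 (−0.33). In overTST 4 fell and 5 rose, against 18.2% and 15.7% of all genes. NUPR1 rose (0.69, SE 0.081, adjusted p = 9.85e-07), as did DDIT3, whose exons overlap MARS (1.01, SE 0.15, adjusted p = 1.74e-05), and VLDLR fell (−0.74, SE 0.11, adjusted p = 1.75e-05). ASNS had 85.1, 87.0, 75.8 and 87.1 CPM in WT, 50.2, 56.4, 46.2 and 52.6 in shTST and 56.6, 59.4, 76.6 and 71.9 in overTST. It was among the genes that fell in overTST (−0.34, SE 0.074, adjusted p = 0.000945). Between the lines, 10 of the 16 were higher in overTST than in shTST and 0 lower, against 16.1% and 16.9% of all genes.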

How the data were processed

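The authors deposited, for each of 12 HepG2 libraries, unnormalized counts for Ensembl genes, together with each gene's exonic length. The submitters' processing notes name Trimmomatic 0.36, STAR 2.5.2b, featureCounts of Subread 1.5.2 and GRCh38. The annotation release and use of strand are not given in the sources used here. Of 57500 identifiers 56898 had a GENCODE 29 name. Groups and replicate numbers came from the sample titles, and culture conditions from the study's methods.

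The 2 tests against WT each used only the 8 libraries involved, and overTST against shTST in a fit of all 12, with edgeR 4.0.16 in R 4.3.3 (filterByExpr, TMM, quasi-likelihood test, Benjamini-Hochberg over all genes tested, threshold 0.05). SE is the log2 fold change over the square root of F. CPM and RPKM were computed from TMM-scaled counts of all 12 libraries. The alternatives were DESeq2 1.42.0, limma-voom (limma 3.58.1), RLE and upper-quartile factors, no filter, other samples in the fit and a replicate block. Also tried were a length correction with and without the block, and each library left out. The length correction used each library's log2 CPM (prior count of 2) minus the gene's mean over the libraries fitted. It took a lowess (span 0.3) of these deviations on the log of length. Procedures were tested on simulated counts. No library was left out of the main fits. The depth of 22911380 to 45120508 counts limits counting error only. Replicates are called independent in the series' design.

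Members and lists were chosen with earlier results of these data known. Genes were chosen by this rule: in each comparison with WT the 5 cytosolic and 3 mitochondrial called genes of largest change, the highest and lowest in RPKM of each compartment, and HARS, HARS2, KARS, GARS and TST. These were given per library in at least some groups, except PARS2, given by its range in WT. Of each related list at most 3 called genes, by smallest p, were named with their log2 fold change. FARSA, FARSB, ATF4, ASNS, DDIT3 and CARS2, and the members beside a threshold, were added after their values were seen. Promoters are from RefSeq (GRCh38.p14), matched by symbol.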

Additional observations from a re-analysis of the deposited data

Results flagged for a closer look

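In 111 groups of 4 libraries (36 synthetase genes and TST, in 3 groups each), Dixon's ratio of the gap to the range was above its 95% critical value in 5, and chance alone gives about 1 in 20. SARS had 190 CPM in WT replicate 4 against 176 to 178 in the others (ratio 0.851), the library without which its overTST call was lost. MARS2 had 30.1 CPM in WT replicate 3 against 31.8 to 32 (0.897). RARS2, the mitochondrial arginyl enzyme, had 45.5 CPM in overTST replicate 4 against 48.5 to 48.9 (0.875). WARS2, the mitochondrial tryptophanyl enzyme, had 16.7 CPM in overTST replicate 1 against 14.0 to 14.4 (0.842). TST had 36.6 CPM in shTST replicate 3 against 33.0 to 33.6 (0.839), still below every WT library.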

How the results depend on the processing

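With shTST the count of lower cytosolic genes was 12 or 13 in every fit, and the median of these genes kept its sign in all comparisons. Other counts moved more. In overTST the lower cytosolic genes numbered 8 with upper-quartile factors and 8 to 11 with a library left out. With shTST the higher mitochondrial genes numbered 1 with DESeq2, RLE factors or the length correction, 2 with upper-quartile factors or the replicate block, 3 with both length correction and replicate block, and 0 to 2 with a library left out. The lower mitochondrial genes numbered 1 to 2 with a library left out. In overTST the higher cytosolic genes numbered 2 with DESeq2, upper-quartile factors or all samples in the fit, the lower mitochondrial genes 2 with upper-quartile factors and 2 to 4 with a library left out, and the higher mitochondrial genes 0 without the filter and 0 to 1 with a library left out. Against shTST, overTST had 3 higher cytosolic genes and 0 higher mitochondrial genes without the filter, 1 lower cytosolic gene with the length correction, alone or with the replicate block, and 5 to 9 higher cytosolic, 0 to 2 higher mitochondrial and 1 to 4 lower mitochondrial genes with a library left out. The causes were not tested.

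Some values near 0 changed sign. With shTST HARS was 0.0070 with upper-quartile factors, 0.0071 with the length correction, 0.0072 with block and length correction and −0.027 to 0.0076 with a library left out. HARS2 was −0.0088 without the filter, −0.0041 with the length correction, −0.0036 with the block added and −0.027 to 0.023 with a library left out, and MARS2 −0.015 to 0.058. In overTST IARS2 was 0.011 with upper-quartile factors and −0.044 to 0.012 with a library left out, CARS 0.040 with the length correction and 0.035 with the block added, NARS2 −0.034 in both and −0.0013 to 0.050 with a library left out, and PARS2 −0.18 to 0.017.

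Upper-quartile factors moved the share of higher genes among all calls from 41.6% to 52.7% with shTST. Same-numbered libraries deviated together little (correlations from −0.053 to 0.080, none over 0.1). Against WT, shTST replicates 1, 2 and 3 correlated best with their own number, and replicate 4 with WT replicate 2. Of the overTST libraries, replicates 1 and 3 correlated best with their own number in WT, and no replicate did so in shTST. Such small correlations cannot tell whether the numbers pair the samples. The replicate block raised all calls with shTST from 2346 to 2980 and gave 13 lower cytosolic genes.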
